A study of Mus musculus with 6 samples.

Results

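B lineage cells of the fracture callus were chosen by their UMIs (unique molecular identifiers, 1 per captured RNA molecule) from 6 single-cell RNA-seq libraries. A barcode was taken when it held at least 700 UMIs with at most 10% from mitochondrial genes, at least 3 UMIs of Cd79a, Cd79b and Ms4a1 together, no UMI of Cd3e, Cd3g or Csf3r, and fewer than 3 UMIs of C1qa, C1qb and C1qc together. This gave 286 cells of the 41367 barcodes that passed the filter and of 46944 barcodes in all. The libraries came from the femoral callus of 12-week-old mice 14 days after fracture, with 3 control libraries (genotype given as wt, and as Piezo1 f/f in the study's text) and 3 knockout libraries. The knockout label reads Col2CreERT; Piezo3-/-, whereas the series design and the study's text name Piezo1, the mechanosensitive ion channel gene. Tamoxifen, which activates the Cre, was injected daily for 5 days (75 mg/kg each), the first time on day 5 after fracture. The study's scheme of the injections names both genotypes, so the controls shared this agent, while its methods name the first injection for the knockout mice only. Cre is driven there by a Col2a1 promoter, which is known for its activity in chondrocytes. Whether the deletion reached B lineage cells was not tested.

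B cells arise in bone marrow from progenitors that first make a surrogate light chain (Vpreb1, Vpreb2 and Igll1) to test a new Ighm heavy chain, then join Igkc or Iglc light chains to it and leave the marrow as naive cells with Ighm and Ighd on the surface. Cd79a and Cd79b encode the signalling pair of the B cell receptor, Ms4a1 encodes CD20 of maturing B cells, and Vpreb3 encodes a pre-B cell chaperone of the receptor. After activation, B cells may switch to Ighg or Igha heavy chains and become plasma cells, which lose most surface receptor and devote much of their RNA to secreted antibody and its joining chain, Jchain.

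The promoters of 10 of 16 genes looked up were found in the RefSeq table (build GRCm38.p6). No annotated exon overlaps the window of Vpreb3, Igll1, Jchain, Dntt, Rag1, Pax5 or Xbp1. The first 3 of these, from the gene lists of pre-B and plasma cells, are shown. Each is the 150 bases before the transcript start that RefSeq gives, 5′ to 3′, and capitals mark an octamer (ATTTGCAT, sought on both strands), the site of the B cell factors Oct-2 and OBF-1. For Vpreb3 this start lies within the annotated gene (chr10:75943057-75949657), whose longer transcript begins further upstream and whose start is not shown. The windows lie at chr10:75948150-75948299 (plus strand) for Vpreb3, chr16:16863986-16864135 (minus strand) for Igll1 and chr5:88527898-88528047 (minus strand) for Jchain.
Vpreb3: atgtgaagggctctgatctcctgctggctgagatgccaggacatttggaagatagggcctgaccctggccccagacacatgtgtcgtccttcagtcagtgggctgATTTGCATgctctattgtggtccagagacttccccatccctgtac
Igll1: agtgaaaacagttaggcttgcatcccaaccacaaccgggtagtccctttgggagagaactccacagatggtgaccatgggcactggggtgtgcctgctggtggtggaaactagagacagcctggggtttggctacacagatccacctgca
Jchain: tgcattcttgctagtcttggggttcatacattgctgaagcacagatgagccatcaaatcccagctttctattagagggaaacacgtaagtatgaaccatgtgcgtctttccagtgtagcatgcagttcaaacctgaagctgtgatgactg
The octamer stood 45 bases before that transcript start of Vpreb3 and in none of the other 9 promoters, against 1.74% of 32851 promoters of 300 bases. The letters TCCCNNGGGA, which read the same on both strands and are bound by Ebf1, were in none of the 10 and in 0.904% of all promoters. A match describes letters only, and a window without one says nothing of the factor.

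The libraries differed far more than the groups. They held 6, 148 and 24 B lineage cells in control replicates 1, 2 and 3, and 1, 95 and 12 in knockout replicates 1, 2 and 3. Control 2 and knockout 2 thus gave 243 of the 286 cells, and only replicates 2 and 3 reached the 10 cells set for a comparison of members. Knockout 3 stood apart in 2 ways. An Xist UMI, the RNA of the inactive X chromosome, was found in 87.6% of its passing barcodes and in at most 0.273% of those of any other library, and its 12 B lineage cells had no UMI of the Y-linked Ddx3y, whereas the study's methods name male mice. Its B lineage cells also carried stromal RNA, with Col2a1 at 25840 CPM (UMIs summed over the cells and scaled to the same total). The level was 2515, 871 and 246 CPM in controls 1 to 3, and 3300 and 8.54 CPM in knockouts 1 and 2. Over all passing barcodes Col2a1 ran from 146 CPM in knockout 2 to 25700 CPM in control 1, with 19101 CPM in knockout 3. In knockout 3, 3 of the 12 B lineage cells held 96.9% of their Col2a1 UMIs. Of these 12 cells, 4 had no immunoglobulin UMI at all, and those 4 held 15757 to 48896 UMIs with 3 UMIs of the rule's genes each. In all, 6 of the 12 held a low share of Cd79a, Cd79b and Ms4a1 UMIs (under 0.1% of their UMIs), and these 6 gave 90.6% of the UMIs summed for knockout 3. No cell in the other 5 libraries lacked immunoglobulin UMIs, so the rule's label goes against the data for these 4 barcodes. Across libraries, 222 barcode sequences occurred more than once, 3 of them among B lineage cells, and none was a B lineage cell in more than 1 library. The labels do not say that the libraries came from separate animals, and the study's text gives differing numbers of mice for this experiment. The n of 3 counts libraries, and the p-values measure only the spread between them.

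RNA of other cells was in part concentrated in few barcodes and in part spread over many. In control 2, 1 of 148 cells held 90.4% of the 2531 UMIs of the neutrophil gene S100a8, and the median cell held 1. In knockout 2, 4 of 95 cells held 77.5% of the 2979 UMIs of the osteoblast collagen Col1a1, with a median of 6 per cell. In control 2, by contrast, 1 cell held 9.26% of the 594 Col2a1 UMIs, 15 of 148 cells had none and the median was 3, and 1 cell held 24.7% of the 296 Col1a1 UMIs. Summed over all 286 cells, the neutrophil list of 13 genes stood at 5419 CPM against 14296 in all other passing barcodes, with S100a8 the most abundant gene and Csf3r at 0 by the rule. The corresponding macrophage list stood at 1265 against 4502 CPM, with Lyz2 the most abundant, and the list of 12 chondrocyte and osteoblast genes at 15580 against 61915 CPM, with Col1a2 the most abundant. For endothelial and mural genes the sums were 904 and 1692 CPM (led by Plvap), for erythroid genes 64.1 and 1707 CPM (led by Hbb-bs, with Alas2, Klf1 and Slc4a1 among the genes at 0), for T and NK cell genes 122.9 and 104 CPM (led by Ccl5, with Cd3e, Cd3g and Cd8a at 0) and for plasmacytoid dendritic cell genes 650 and 638 CPM (led by Tcf4). The part of this RNA in the comparisons between classes and groups was not tested.

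The receptor genes that chose the cells are given by library as a description only. Cd79a (chr7:24897381-24902197) was found in 98.3% of the cells and Ms4a1 (chr19:11249675-11266241) in 65.4%, as the rule set. In controls 1 to 3 the Cd79a level was 733, 1218 and 1043 CPM, and in knockouts 1 to 3 it was 2329, 2036 and 383 CPM. In the other barcodes of any library it was at most 3.66 CPM, a gap that the rule set. Knockout 3 was lowest and the knockout 1 value rests on 12 UMIs of 1 cell. The rule sets a floor in UMIs, so these CPM also depend on depth. The median cell held 9624 UMIs in knockout 3 and 2176 in control 2. Without the 3 genes of the rule, all 22 measured genes of the B lineage list (Faim3 not listed) were higher in the sum of B lineage cells than in the other barcodes, 7 of them in every library, and together they stood at 3765 against 519 CPM. Outside the rule, the 10 genes most enriched over the other barcodes, higher in all 6 libraries, included Igkc, Ly6d, Iglc2, Pou2af1, Fcrla, H2-Ob, Bank1, Ighm and Siglecg. Ly6d, a surface protein of B cell progenitors and B cells, stood at 892 against 1.66 CPM. The Ly6d level was 383, 843 and 1189 CPM in controls 1 to 3 and 776, 1353 and 244 CPM in knockouts 1 to 3, again lowest in knockout 3. Iglc2, a lambda light chain, was found in 188 cells, Bank1, an adaptor of receptor signalling, in 143, and H2-Ob, which tunes peptide loading of MHC class II, in 141. A UMI of Ptprc, which encodes the leukocyte antigen CD45, was missing from 107 cells. Knockout 3 had 1 such UMI in its 12 cells, although their median of 9624 UMIs was the highest of the libraries. The median B lineage cell held 2372 UMIs and the median other barcode 7384.

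Just inside the rule's threshold, 13 cells had exactly 3 UMIs of Cd79a, Cd79b and Ms4a1 (median 14370 UMIs), of which 4 were in knockout 3. Just outside it, 47 barcodes with 2 such UMIs met the other criteria (median 14564 UMIs). Of the 349 barcodes with at least 3 UMIs, the exclusions, which overlap, met 5 with Cd3e or Cd3g, 46 with C1q UMIs, 28 of them in knockout 2, and 18 with Csf3r, and left the 286.

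Detection of Ms4a1, Vpreb3 and Ighm split the cells into 8 subsets. The largest was Ms4a1+ Vpreb3- Ighm+ with 114 cells (39.9%), followed by Ms4a1+ Vpreb3+ Ighm+ with 53 (18.5%), Ms4a1- Vpreb3- Ighm+ with 35 (12.2%) and Ms4a1- Vpreb3+ Ighm+ with 29 (10.1%). The 4 subsets without Ighm were smaller, at 9 (Ms4a1+ Vpreb3+), 11 (Ms4a1+ Vpreb3-), 12 (Ms4a1- Vpreb3+) and 23 cells (neither). In the last pair the median depth was 12450 and 9832 UMIs, against 2032 to 2272 in the 4 Ighm+ subsets. Detection follows depth, so each cell was also thinned to 700 UMIs, which no cell fell short of. Ms4a1 was then found in 40.2%, Vpreb3 in 17.5% and Ighm in 64.0% of the cells, against 65.4%, 36.0% and 80.8% with all UMIs. Ighm was also seen in barcodes gated as other cells. At 700 UMIs it was in 3.53% of 2691 neutrophil-gated barcodes (median 2466 UMIs), 3.07% of 553 T cell-gated barcodes (median 3069 UMIs) and 5.03% of 3795 macrophage-gated barcodes (median 8760 UMIs). With all UMIs, on which the 8 subsets rest, the shares were 13.9%, 18.4% and 25.5%, and in knockout 2 they reached 30.4% of neutrophil-gated and 43.4% of macrophage-gated barcodes. The source of these UMIs was not tested. At 700 UMIs Vpreb3 was in 1 of the 2691 neutrophil-gated barcodes. These gates leave out barcodes with Ms4a1 UMIs, so they give no background for that gene.

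Most cells without Ighm were plasma-like. Jchain (chr5:88519809-88527891) separated the cells into groups with nothing between them: 34 cells held 105 to 939 Jchain UMIs, 7 held 1 and 245 held 0. A limit of 100 Jchain UMIs, set after these values were seen, therefore defines the 34 plasma-like cells. They included 18 of the 23 cells without Ms4a1, Vpreb3 and Ighm and 11 of the 12 with Vpreb3 alone. Immunoglobulin genes made up 18.3% to 68.8% of their UMIs (median 39.9%), against a median of 1.195% and a highest value of 4.34% in the other B lineage cells. Being 11.9% of the cells, they held 96.9% of all Igkc UMIs and 28.4% of all UMIs, so a level summed over B lineage cells is largely theirs for secreted antibody genes. Their median depth of 11758 UMIs was above the 2174 UMIs of the other cells.

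**Figure D1:**
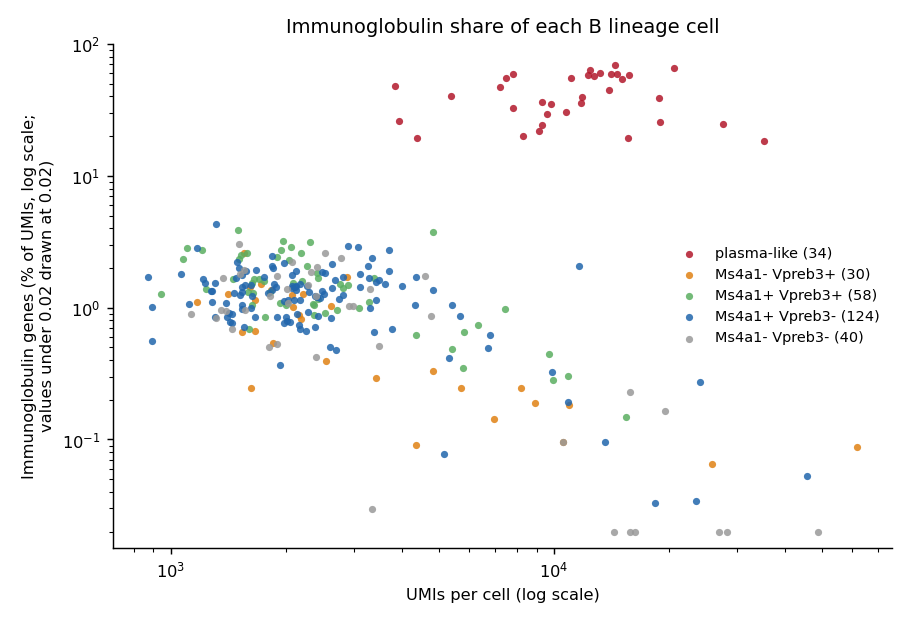
Share of UMIs from immunoglobulin genes (y axis, percent, log scale) against UMIs per cell (x axis, log scale) for each of the 286 B lineage cells, coloured by class. The 34 plasma-like cells lie between 18.3% and 68.8%, all above the 4.34% reached by any other cell.

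Each plasma-like cell expressed a single class-switched heavy chain. Igha (chr12:113254830-113260236), the heavy chain of IgA, led in 27 cells, Ighg2c in 4, Ighg2b in 2 and Ighg1 in 1. The leading gene held at least 96.8% of a cell's heavy chain UMIs (median 99.9%), and the 34 cells had 0 UMIs of Ighm and 0 of Ighd. Igkc was the light chain of 33 cells, with at least 412 UMIs each. The exception was 1 control 3 cell with 4773 Iglc1 UMIs, which had no Igkv UMI. Leading variable genes were shared by few cells. In 31 cells with at least 5 UMIs of an Igkv gene, 24 such genes led, 7 of them in 2 cells each. In 27 cells with at least 2 UMIs of an Ighv gene, 22 led, of which 3 did so in 2 cells each and 1 in 3 cells. All 25 cells with at least 5 Igkv UMIs and at least 2 Ighv UMIs had different Igkv and Ighv pairs, as with Igkv12-46 (58 UMIs) and Ighv5-9-1 (19 UMIs) in 1 control 3 cell. Variable genes are near-identical in part, so the assignment to a single member is uncertain.

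**Figure D2:**
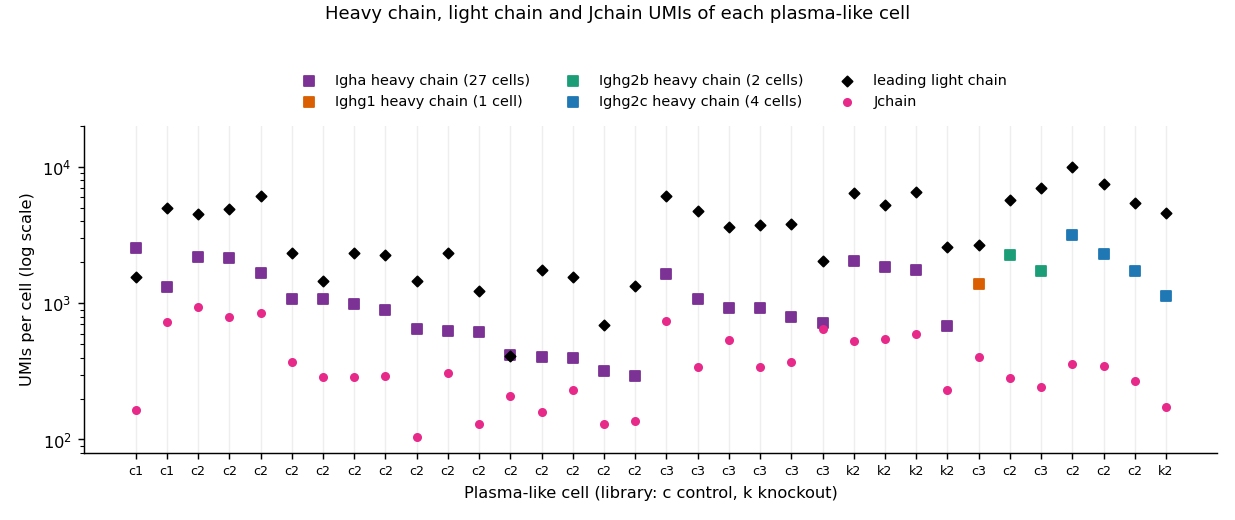
UMIs of the leading heavy chain (squares, coloured by gene), the leading light chain (diamonds) and Jchain (circles) in each of the 34 plasma-like cells (x axis, labelled by library; y axis, UMIs per cell, log scale). Igha cells fill the left of the plot, and all Jchain counts lie between 105 and 939.

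Genes of the plasma cell list stood at 35351 CPM in these cells, with Jchain at 30999 CPM. Xbp1, the transcription factor of the secretory programme, was at 1027 CPM and found in 33 of the 34 cells, and Tnfrsf17, the survival receptor BCMA, at 232 CPM and in 28 cells, with no UMI in any other class. Derl3, Edem1 and Creld2, which handle proteins in the endoplasmic reticulum, were at 346, 745 and 477 CPM, against at most 5.37, 56.6 and 69.8 CPM in the other classes. Sdc1, the plasma cell surface marker CD138, was in 21 of 34 cells at 92.5 CPM. Mzb1, a plasma cell chaperone, reached only 19.0 CPM. Ms4a1 was found in 5 of the cells, and Pax5, the B cell identity factor, had no UMI. Vpreb3 was found in 15 of them, up to 14 UMIs in a cell. The 34 cells were in controls 1 to 3 (2, 19 and 8) and knockout 2 (5), and none was in knockout 1 or 3. Doublet scores among the highest of their library marked 19 of the 34, all 19 of them the plasma-like cells of control 2, and 12 of the 252 other B lineage cells.

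A further 6 barcodes with at least 100 Jchain UMIs failed the rule, all through C1q or Csf3r UMIs. Of these, 1 barcode of knockout 2 with 787 Jchain UMIs had 99.9% of its heavy chain UMIs from Ighm, and Igha led in the other 5.

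Surrogate light chain genes marked a second set. Of the 252 cells that were not plasma-like, 30 had Vpreb3 without Ms4a1, and 14 of these had a Vpreb1 or Igll1 UMI, against 3 of 58 with both Vpreb3 and Ms4a1 and 1 of 124 with Ms4a1 alone. Vpreb1 and Igll1, the surrogate light chain, stood at 1112 and 945 CPM in the Ms4a1- Vpreb3+ cells and at 2.33 and 0 CPM in the Ms4a1+ Vpreb3- cells. In those 30 cells Dntt, which adds nucleotides at joins, was at 311 CPM and Rag1, the recombinase, at 96.7 CPM, both 0 in all other classes. A single control 1 cell gave 12 of the 18 Rag1 UMIs, 96 of the 176 Igll1 UMIs, 22 of the 58 Dntt UMIs and 94 of the 207 Vpreb1 UMIs. Without this cell the levels in the other 29 were 47.9 CPM for Rag1, 638 for Igll1, 287 for Dntt and 901 for Vpreb1. Vpreb2 is a near-identical copy of Vpreb1, and reads of the pair may be split. Control 2 and knockout 2 had at least 10 cells of both classes. The Vpreb1 level was 858 CPM in control 2 and 1079 in knockout 2 for the Ms4a1- Vpreb3+ cells, and 4.56 and 0 for the Ms4a1+ Vpreb3- cells. After Igll1 and Vpreb1 the leading genes without plasma-like cells were Myl10, Dntt, Hist1h1a, Vpreb2, Nrxn2, Esco2, Lef1 and Nusap1. This order rests on sums over all libraries. Nrxn2 stood at 118 CPM in the 30 cells, but at 13.6 CPM in those of control 2 and 44.0 CPM in those of knockout 2. Myl10 stood at 322 CPM in the 30 cells, with 409 CPM in control 2 and 22.0 CPM in knockout 2. With plasma-like cells included, as the rule for named genes was written, Igha led, and the other 9 were Igll1, Vpreb1, Myl10, Dntt, Hist1h1a, Ccr10, Myl4, Nusap1 and Il7r.

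Of the 30 Ms4a1- Vpreb3+ cells, 24 had an Igkc UMI and 9 an Ighd UMI, so the class as a whole is named here by its genes. With all UMIs, Igkc was also in 13.4% of T cell-gated and 12.5% of neutrophil-gated barcodes, and Ighd in 0.542% and 0.223%. In 11 pre-B-like cells the surrogate light chain reached at least 3 UMIs, and these were spread over control 1 (1), control 2 (4) and knockout 2 (6). A control 2 cell of 10859 UMIs among them had 1 Ms4a1 UMI and so is not one of the 30. All 11 had Vpreb3 (5 to 34 UMIs) and Ighm UMIs, 10 had Mki67 UMIs or Top2a UMIs, 8 had Dntt, and none had more than 2 Igkc UMIs. The deepest was the control 1 cell named above, of 61720 UMIs with 94 Vpreb1, 96 Igll1, 22 Dntt, 12 Rag1 and 72 Mki67 UMIs. This single cell held 50.5% of all UMIs of the B lineage cells of control 1. The G2 and M phase list stood at 3743 CPM in the Ms4a1- Vpreb3+ cells and at 280 CPM in the Ms4a1+ Vpreb3- cells. For the S phase list the sums were 3088 and 545 CPM. The deepest cell gave 72 of the 136 Mki67 UMIs of the 30 cells, and without it Mki67 fell from 730 to 511 CPM. Both list sums include that cell. Mki67 or Top2a UMIs were in 13 of the 30 and 10 of the 124 cells. They were also in 18 of the 34 plasma-like cells, 9 of the 40 Ms4a1- Vpreb3- cells and 4 of the 58 Ms4a1+ Vpreb3+ cells. With all UMIs, Mki67 alone was in 11.6% of T cell-gated, 8.21% of neutrophil-gated and 26.1% of macrophage-gated barcodes. The transcription factor Myb was at 381 CPM and the cytokine receptor Il7r at 199 CPM in the Ms4a1- Vpreb3+ cells, and at 9.32 and 2.33 CPM in the Ms4a1+ Vpreb3- cells.

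The Ms4a1+ cells had the highest levels of the mature B cell markers Ighd, Fcer2a and H2-Aa. They numbered 182 without the plasma-like cells, 58 with and 124 without Vpreb3. Ighm was found in 167 and Ighd in 93 of them. Cd74, the invariant chain of MHC class II, stood at 9760 CPM in the Vpreb3- and 10738 CPM in the Vpreb3+ Ms4a1+ cells, against 2062 CPM in the Ms4a1- Vpreb3+ and 2944 CPM in the plasma-like cells. H2-Aa, an MHC class II chain, was at 2800, 2651, 537 and 323 CPM in the same 4 classes, in that order. Fcer2a, the receptor CD23 of naive B cells, was at 69.9, 151, 5.37 and 0 CPM, and Ccr7, which guides cells to lymph nodes, at 226, 268, 59.1 and 0 CPM, again in that order. The Ms4a1- Vpreb3- cells lay between for H2-Aa, at 935 CPM and in 80% of the cells, and had Ighd in 47.5% and Fcer2a in 20%, the latter against 17.7% of the Ms4a1+ Vpreb3- cells. The 11 MHC class II genes summed to 17664 and 17644 CPM in the Ms4a1+ classes and 3539 CPM in the Ms4a1- Vpreb3+ cells.

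At least 5 UMIs of Igkc were held by 146 of the 182 cells and at least 5 of the lambda chains by 67, with both in 52. Mature B cells usually express 1 light chain, and the share of free RNA in these low counts was not tested. Across libraries the MHC class II list summed to 4498, 9179 and 6304 CPM in all B lineage cells of controls 1 to 3 and to 17663, 18059 and 3979 CPM in those of knockouts 1 to 3, and to at most 2192 CPM in the other barcodes of any library. Cd74 led the list, with 11520 CPM in knockout 2 as the highest value of the 4 libraries with at least 10 cells and 2202 CPM in knockout 3 as the lowest.

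Of the 182 cells, 15 lacked Ighm and 7 of the 15 held at least 5 UMIs of Ighg or Igha genes, among them all 3 of control 1. In control 1, a cell of 5817 UMIs had 19 UMIs of Ighg3 and no Jchain UMI, and a control 3 cell had 15 Ms4a1, 144 Igkc and 6 Ighg2b UMIs, also without Jchain. The remaining 40 cells, Ms4a1- Vpreb3-, had Ighm at 826 CPM and Cd74 at 3936 CPM, and also Col2a1 at 16321 CPM, of which 4 knockout 3 cells gave 4252 of 4329 UMIs. The 35 of the 40 cells with an Ighm UMI had Col2a1 at 477 CPM, against 704 to 992 CPM in the other 4 classes, Ighm at 1431 CPM and Cd74 at 6775 CPM. All 4 cells without immunoglobulin UMIs fall in this class. The genes highest in Ms4a1+ Vpreb3- over Ms4a1- Vpreb3+ cells were also listed by the rule for named genes. With plasma-like cells included, as that rule was written, they were Ngp, Camp, Gpihbp1, Id1, Pglyrp1, S100a8, Ly6c1, Ltf, March1 and Cd2. Without plasma-like cells they were Kdr, Ngp, Camp, Ltf, Gpihbp1, Iglc1, Id1, Pglyrp1, Wwtr1 and S100a8. Several are neutrophil granule genes, and 1 control 2 cell held 95.9% of that library's Ngp UMIs and 93.3% of its Camp UMIs. Of the endothelial gene Kdr, 2 control 2 cells held 75.8% of that library's UMIs.

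**Figure D3:**
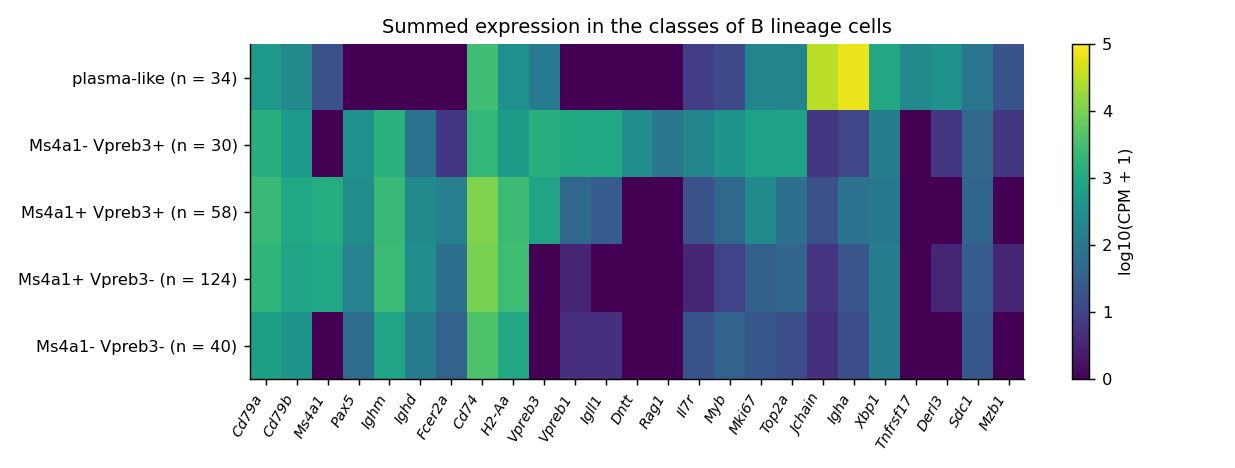
Summed expression (colour, log10 of CPM + 1) of 25 genes (columns) in the 5 classes of B lineage cells (rows, with the number of cells). Jchain and Igha are highest in the plasma-like row, Vpreb1, Igll1, Dntt and Rag1 in the Ms4a1- Vpreb3+ row, and Cd74 in the Ms4a1+ rows, each with values given above.

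Among B lineage transcription factors, 16 of 19 were higher in the sum of the cells than in the other barcodes, and Ebf1, the most abundant, stood at 742 against 188 CPM. Its level was 1901 CPM in the Ms4a1- Vpreb3+ cells and 66.4 CPM in the plasma-like cells. Pou2af1, which works with Oct factors, was the most abundant gene of the list in plasma-like cells at 304 CPM. Of the 15 homing and niche receptors, 14 were higher in the cells, and Ltb, encoding lymphotoxin beta, stood at 179 against 10.2 CPM. Itga4, which with its partners anchors cells in marrow, was at 237 CPM in plasma-like cells. Of 12 signals between B cells and bone, 4 were higher in the cells. Tgfb1 was at 199 against 167 CPM, Tnfsf11, which encodes the osteoclast factor RANKL, had 6 UMIs in all, or 4.05 against 24.96 CPM, and Tnfrsf11b, its decoy receptor, also had 6. Sost had none. The 15 genes of marginal zone, B-1 and germinal centre cells summed to 830 against 827 CPM. Cd5, a B-1 marker, had 4 UMIs.

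The mature B cell list was higher for 21 of 21 genes and stood at 4081 against 1438 CPM, and the surrogate light chain and recombination list for 20 of 23 at 2518 against 820 CPM. The immunoglobulin chains were higher for 13 of 13 genes, and the plasma cell list for 10 of 12. Lists of general cell states were closer to the other barcodes. S phase genes summed to 969 against 630 CPM and G2 and M phase genes to 876 against 655 CPM. The type I interferon list stood at 613 against 641 CPM, led by Ifi27l2a, and the immediate early list at 4672 against 6237 CPM, led by Jund. Piezo1 (chr8:122481698-122551329) had 4, 28 and 2 UMIs in controls 1 to 3 and 1, 8 and 6 in knockouts 1 to 3, or 33.1 against 57.9 CPM in the other barcodes. Counts from the 3′ end of the RNA do not check a deletion.

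The share of B lineage cells did not separate the groups. It was 0.149%, 1.72% and 0.276% of the passing barcodes in controls 1 to 3 and 0.0345%, 0.953% and 0.168% in knockouts 1 to 3. The mean was 0.714 ± 0.872% (SD, n = 3) in controls and 0.385 ± 0.496% (SD, n = 3) in knockouts, a difference of -0.329 percentage points with p = 0.6 in a two-sided exact permutation test over the 6 libraries, where 0.1 is the smallest p the design allows. The Wilson 95% interval, which covers counting error only, was 1.46% to 2.01% in control 2 and 0.780% to 1.16% in knockout 2, and both lay above the interval of every replicate 1 and 3 library. Without control 2 the difference was 0.173 percentage points with the knockouts higher. Without knockout 3 the difference was -0.220 points (exact p = 0.8).

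**Figure D4:**
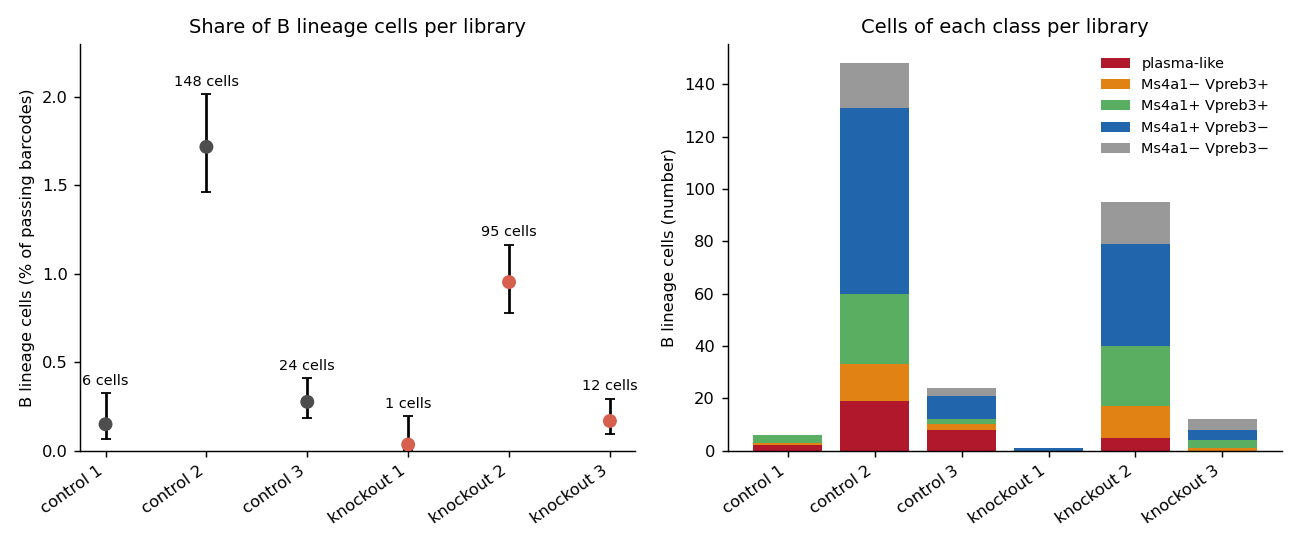
Left, share of B lineage cells among passing barcodes (y axis, percent) in the 6 libraries, with Wilson 95% intervals and the number of cells. Right, number of B lineage cells of each class per library, where control 2 (148 cells) and knockout 2 (95 cells) hold most of every class.

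Shares of the cells with a given UMI were compared over the 2 control and 2 knockout libraries with at least 10 cells, where an exact test cannot go below p = 0.333. At 700 UMIs per cell, Ms4a1 was found in 44.6% of the cells of control 2, 37.5% of control 3, 40% of knockout 2 and 0 of 12 cells of knockout 3. A second random draw of 700 UMIs gave 43.9%, 37.5%, 34.7% and 16.7%, with 2 of the 12 knockout 3 cells. With all UMIs the shares were 68.9%, 50%, 65.3% and 58.3% in the same order, so that 7 of the 12 knockout 3 cells had an Ms4a1 UMI and control 3 was lowest. The Ighm shares in these libraries were 70.3%, 58.3%, 63.2% and 33.3%. At 700 UMIs knockout 3 was lowest for both genes, and for Ms4a1 the difference between groups turned to 2.34 points with all UMIs. Vpreb3 was in 16.9%, 12.5%, 20% and 16.7% of the cells, and Mki67 or Top2a in 4.73%, 4.17%, 7.37% and 8.33%. The summed levels of the same genes went the other way, with log2 fold changes (knockout against control) of -1.62 ± 0.70 for Mki67 and -1.36 ± 0.93 for Top2a (SE, edgeR adjusted p = 0.997 for both) and a median of -1.49 over the 4 G2 and M phase genes tested. Plasma-like cells were 12.8% and 33.3% of the cells in controls 2 and 3 and 5.26% and 0% in knockouts 2 and 3. The groups did not overlap in this share and in that of Mki67 or Top2a. With 2 libraries against 2 this is common, and it held for 30.8% of the genes tested between groups. The Mki67 or Top2a share rests on 7 of 148 and 1 of 24 cells in controls 2 and 3, and 7 of 95 and 1 of 12 in knockouts 2 and 3. Without the cells of highest doublet scores, plasma-like cells were 0 of 124 and 8 of 24 cells in controls 2 and 3 and 5 of 88 and 0 of 12 in knockouts 2 and 3, and the groups overlapped (exact permutation p = 1). The difference of the means (knockout minus control) for Ms4a1, which helped choose the cells and is given as a description only, was -21.0 percentage points, and -1.05 points without knockout 3. For Ighm, Vpreb3, Mki67 or Top2a and plasma-like cells the differences were -16.1, 3.64, 3.40 and -20.5 points. The exact permutation p was 0.667, 0.667, 0.333 and 0.333, or 0.667 for each after adjustment over 5 shares, a count that includes Ms4a1. The Ighm difference was -6.27 points in the second draw, -5.84 with all UMIs, -34.1 without plasma-like cells and -1.14 without knockout 3. That for Vpreb3 turned to -3.52 in the second draw, and that for Mki67 or Top2a was 9.36 with all UMIs. As a share of passing barcodes over all 6 libraries, plasma-like cells differed by -0.104 points (exact permutation p = 0.2).

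Genes were compared between groups on UMIs summed over the cells of each of these 4 libraries, with edgeR's quasi-likelihood test and Benjamini-Hochberg adjustment. Of 3832 genes tested, 0 passed an adjusted p of 0.05 (0%), and 157 had an unadjusted p under 0.05. DESeq2 called 39 of the 2773 genes it adjusted. No gene of any of the lists above passed with edgeR over the 4 libraries. Without control 2, which leaves control 3 as the only control, 10 of all genes tested passed, all lower in knockouts. Among them were Ighg1 and Ighg2b, which rest on 1 plasma-like cell of control 3 each, with 1398 Ighg1 and 1721 Ighg2b UMIs. Values of the groups did not overlap for 30.8% of the genes tested, so a gene whose 2 controls lie on one side of its 2 knockouts is common here. The gene lists had these median log2 fold changes (knockout against control), beside -0.03 over all genes: -0.48 for 20 B lineage genes outside the rule, -1.98 for 10 immunoglobulin chains, -1.63 for 10 plasma cell genes, and 0.36 for 11 MHC class II genes. For genes of other cell types they were 4.35 for 9 of chondrocytes and osteoblasts, -1.94 for 8 of neutrophils, -1.20 for 4 of endothelial and mural cells, 2.32 for 2 of T and NK cells, 0.24 for 4 of macrophages and monocytes and -0.32 for 3 of plasmacytoid dendritic cells.

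Single genes show what lies behind these medians. Ighm had a log2 fold change of -0.51 ± 0.98 (SE). Its level was 1576 and 1176 CPM in controls 2 and 3 and 1971 and 163 CPM in knockouts 2 and 3. In knockout 3, the 6 cells with a low share of Cd79a, Cd79b and Ms4a1 UMIs gave 90.6% of the summed UMIs. No gene fit was run without such cells, so their part in the fold changes and list medians was not tested. Ighg2b, an IgG heavy chain chosen after its values were seen, had 2292 and 1764 UMIs in controls 2 and 3 and 54 and 4 in knockouts 2 and 3, a log2 fold change of -6.69 ± 1.29 with an edgeR adjusted p of 0.384. A single plasma-like cell gave 2252 of the control 2 UMIs and another 1721 of those of control 3. The Igha level was 20157 and 40464 CPM in controls 2 and 3 and 18050 and 11.6 CPM in knockouts 2 and 3, where no plasma-like cell was found in the last. Its log2 fold change was -2.03 ± 1.99 (edgeR adjusted p = 0.997). Col1a1, an osteoblast gene, stood at 434 and 445 CPM in controls 2 and 3 and at 8484 and 10881 CPM in knockouts 2 and 3, a log2 fold change of 4.29 ± 0.67 with an edgeR adjusted p of 0.274. The whole list of 12 chondrocyte and osteoblast genes summed to 2338 and 2039 CPM in the B lineage cells of controls 2 and 3 and to 18523 and 79604 CPM in those of knockouts 2 and 3, and to 31731, 43186, 63664 and 69688 CPM in the other barcodes of the same libraries. The part of that RNA in this difference was not tested. Rps3a3, a processed pseudogene on chromosome 13 with the lowest p, had 981 and 181 UMIs in controls 2 and 3 and 0 in both knockouts (edgeR adjusted p = 0.0851). Without knockout 3, edgeR called 3 genes, which were Retnla, Ifitm5 and Rps3a3, and without knockout 2, which leaves knockout 3 as the only knockout, it called 405, with Xist and cartilage genes such as Ucma and Chad among those with the lowest p.

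**Figure D5:**
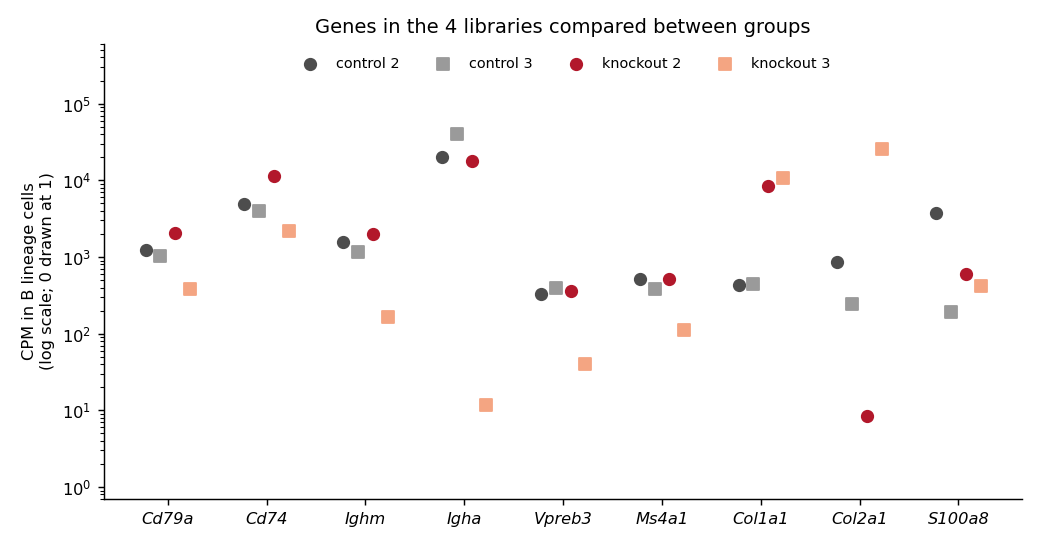
Level (y axis, CPM, log scale) of 9 genes in the B lineage cells of the 4 libraries compared between groups. Knockout 3 is lowest for Cd79a, Cd74, Ighm, Igha, Vpreb3 and Ms4a1 and highest for Col2a1, while Col1a1 is higher in both knockouts. Cd79a and Ms4a1 helped choose the cells and are shown as a description only.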

How the data were processed

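Single cells of fracture callus were captured with 10x Genomics 3′ chemistry. Per the file headers, the authors made the deposited UMI counts with 2 releases of Cell Ranger, 6.1.1 for control 1 and knockout 1 and 6.1.2 for the other libraries. The submitters' processing notes name build GRCm38. The counts were neither normalised nor pooled. Total UMIs per library were 69361237, 77384286 and 80735192 in controls 1 to 3, and 57626530, 103784364 and 102513582 in knockouts 1 to 3. Replicate 3 of both groups listed another set of genes, so genes were joined by identifier.

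B lineage cells were taken by the rule given at the start, and the members and gene lists were chosen with earlier results of these data known. CPM were computed from UMIs summed over cells. Shares of cells with a UMI were computed after each cell was thinned to 700 UMIs, with Wilson 95% intervals that cover counting error only. Doublets were scored with Scrublet (scanpy 1.11.5). Its own threshold called none in 4 libraries, so the highest scores of each library, in a share that grew with its number of barcodes, were marked and removed only in an alternative. Shares were compared with exact permutation tests over libraries (scipy 1.17.1). Counts summed per library were tested with edgeR 4.0.16 (quasi-likelihood, TMM, Benjamini-Hochberg, adjusted p below 0.05) and, as an alternative, DESeq2 1.42.0, over libraries with at least 10 cells. The edgeR steps were tested on simulated data.

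Genes named were those of the rule and lists, the 10 most enriched of at least 100 CPM and higher in every library, the 10 most different each way between Ms4a1- Vpreb3+ and Ms4a1+ Vpreb3- cells, up to 10 called each way between groups, and Piezo1. Where edgeR called no gene, those with the lowest p were named after their values were seen, as were the variable genes of plasma-like cells. Other filters, denominators, thinnings, left-out libraries and a replicate block were tried as alternatives. A few members of the gene lists are not reported here.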

Additional observations from a re-analysis of the deposited data

How the results depend on the processing

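The difference in the share of B lineage cells (knockout minus control) was negative under every filter, threshold and denominator tried, from -0.834 percentage points over barcodes with a Ptprc UMI (exact permutation p = 0.3) to -0.100 after thinning (exact permutation p = 0.5). The Ptprc setting also counted only the 179 B lineage cells with a Ptprc UMI, so both the cells counted and the denominator changed. Leaving out 1 library gave -0.613 to 0.173 points, and the sign turned without control 2. The share with Ms4a1 turned to 2.34 points with all UMIs of a cell, and that with Vpreb3 to -3.52 with another random seed of the thinning and to -5.03 with at least 2 of all UMIs of a cell, without thinning. Leaving out 1 library gave -41.0 to -1.05 points for Ms4a1, 1.44 to 5.83 for Vpreb3, -31.0 to -1.14 for Ighm, 2.92 to 3.89 for Mki67 or Top2a and -30.7 to -10.2 for plasma-like cells. Against 0 genes called by edgeR, DESeq2 called 39 (35 higher in knockouts) and edgeR without a filter on low counts 173, and leaving out 1 library gave 0 to 405 (10 without control 2, 0 without control 3, 405 without knockout 2 and 3 without knockout 3). A lone library was assumed to vary like the other group. The cause was not tested. Over replicates 2 and 3, deviations of same-numbered libraries from their group means had r = -0.0900 over 3832 genes. With 2 libraries per group the crossed pairs give 0.0900 by construction, so this check says little about pairing. In both groups the share of B lineage cells was lowest in replicate 1 and highest in replicate 2. Replicate 1 libraries share a Cell Ranger release and replicate 3 libraries a gene list. The share of B lineage cells was lower in the knockout in all 3 pairs. With the replicate block the share differed by the same -0.329 points (exact p = 0.25, the smallest possible). The share with Ms4a1, described only, kept its difference of -21.0 points. Those for Vpreb3, Ighm, Mki67 or Top2a and plasma-like cells kept 3.64, -16.1, 3.40 and -20.5 points (exact p = 0.5 each, also the smallest possible). With this block edgeR called 0 genes (94 at an unadjusted p under 0.05). The gene test without replicate 3 of both groups was not run, since 1 library against 1 leaves no residual degrees of freedom. Alternatives without plasma-like cells, without cells of low B cell UMI share, and for plasma-like and Mki67 or Top2a shares without the highest doublet scores were chosen after seeing the data. The gene and subset tests rest on 12 to 148 cells per library.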

Other observations

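Rps3a3, the gene with the lowest p between groups, varied between libraries in all cells and not in B lineage cells alone. Over all passing barcodes it stood at 0.497, 966 and 365 CPM in controls 1 to 3 and at 281, 0.635 and 1.02 CPM in knockouts 1 to 3. Control 1 lay with knockouts 2 and 3, and knockout 1 with controls 2 and 3, so the level did not follow the groups. Rps3a1, the gene of the ribosomal protein itself, stood at 1503, 1177 and 1920 CPM in controls 1 to 3 and at 1235, 2727 and 2746 CPM in knockouts 1 to 3. The pseudogene and its parent are near-identical copies, so the split of reads between them is uncertain.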
